A study of Arabidopsis thaliana with 6 samples.

Results

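Plants make small, secreted, cysteine-rich defensin peptides, many of which act against fungi. In Arabidopsis, transcripts of *PDF1.2a* and its close relatives accumulate in leaves when jasmonate and ethylene signals coincide, through transcription factors of the ERF family such as ORA59 that recognise a promoter element called the GCC box. The jasmonate factor MYC2 acts as an antagonist of this branch, and *PDF1.2a* is widely used as its marker. *PDF1.1* is best known as a seed defensin, and the *PDF2* genes are a separate group expressed in many organs.

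The genes described here are 10 defensin and defensin-like genes of 36796 genes in the RNA count table: *PDF1.1* (AT1G75830), *PDF1.2a* (AT5G44420), *PDF1.2b* (AT2G26020), *PDF1.2c* (AT5G44430), *PDF1.3* (AT2G26010), *PDF2.1* (AT2G02120), *PDF2.2* (AT2G02100), *PDF2.3* (AT2G02130), AT3G59930 and AT5G33355. They were picked by name for belonging to this family and because they differed between the genotypes in opposite directions. Their levels and fold changes are therefore a description, and no p-value is given for them. The annotation names 280 genes of the table as defensin, defensin-like or related cysteine-rich genes, so 270 family genes lie outside this set.

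RNA was sequenced from 3 *ref4-3* and 3 wild-type replicates, each combining the shoots of 5 plants, at an age of 21 days and before bolting. The *ref4-3* plants carry a semidominant point mutation in *MED5b*, a gene of the Mediator tail, the module of this complex that contacts transcription factors, and gene counts cannot show such a mutation. Both genotypes are in the Col-0 background and were grown on soil at 22°C with 16 h of light and 8 h of dark, and tissue was taken 6 h after the lights came on. The labels name whole rosettes as the tissue and record neither wounding, infection nor hormone treatment, and a single mutant allele was profiled. In bulk tissue, fewer cells of a type and less RNA per cell cannot be told apart.

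Libraries held 26060005 to 32879414 counts. Wild-type replicate 2 stood apart, with counts for 27913 genes, against 34087 to 34884 genes in the *ref4-3* libraries and 32015 to 33228 in the other wild-type libraries. Markers of leaf cells such as the small subunit of Rubisco summed to 15020 to 19270 CPM, a unit of counts relative to the TMM-adjusted total of the library, in *ref4-3* and 27430 to 34420 CPM in wild type, far above the other marker lists in every library, and 2 of 6 of these leaf markers were called lower in *ref4-3*. The 7 seed storage and oleosin markers summed to 3.84 to 5.45 CPM in *ref4-3* and 0.835 to 3.31 CPM in wild type. Floral markers summed to 5.41 to 9.17 CPM in *ref4-3* and 10.9 to 15.1 CPM in wild type, and root markers to 1.28 to 2.51 CPM in *ref4-3* and 0.487 to 1.198 CPM in wild type. The part of these marker differences in the defensin values was not tested.

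All 10 genes have 2 exons and code for a protein of 77 or 80 residues with 8 cysteines in RefSeq annotation TAIR10.1, the residues whose disulfide bridges hold a defensin together. The *PDF1.2* coding sequences are shown because *PDF1.2a*, *PDF1.2b* and *PDF1.2c* are so alike that the identity of the counted gene matters, and capitals mark the 22 of 243 positions at which they differ. *PDF1.2a* lies on the minus strand at chr5:17906968-17907638, *PDF1.2c* is on the same strand at chr5:17908850-17909507, and *PDF1.2b* lies on the plus strand at chr2:11089123-11089805.
PDF1.2a: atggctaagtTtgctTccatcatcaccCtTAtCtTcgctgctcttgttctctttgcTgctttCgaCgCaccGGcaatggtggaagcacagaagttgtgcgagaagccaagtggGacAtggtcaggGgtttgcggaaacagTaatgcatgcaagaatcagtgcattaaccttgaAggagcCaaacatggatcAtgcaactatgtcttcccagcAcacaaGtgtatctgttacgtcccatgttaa
PDF1.2b: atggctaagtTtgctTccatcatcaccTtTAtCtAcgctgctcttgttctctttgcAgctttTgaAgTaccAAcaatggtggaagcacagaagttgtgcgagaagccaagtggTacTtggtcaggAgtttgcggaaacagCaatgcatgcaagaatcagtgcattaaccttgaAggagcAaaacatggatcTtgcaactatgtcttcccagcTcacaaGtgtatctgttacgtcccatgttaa
PDF1.2c: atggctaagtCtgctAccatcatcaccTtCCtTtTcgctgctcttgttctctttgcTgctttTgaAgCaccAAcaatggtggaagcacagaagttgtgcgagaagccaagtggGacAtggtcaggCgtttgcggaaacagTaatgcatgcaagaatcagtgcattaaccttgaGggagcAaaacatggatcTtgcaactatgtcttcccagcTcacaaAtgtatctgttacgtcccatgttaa

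The pair AT3G59930 (chr3:22139492-22140320, minus strand) and AT5G33355 (chr5:12599250-12599944, plus strand) is shown for the same reason, with the single differing position in capitals.
AT3G59930: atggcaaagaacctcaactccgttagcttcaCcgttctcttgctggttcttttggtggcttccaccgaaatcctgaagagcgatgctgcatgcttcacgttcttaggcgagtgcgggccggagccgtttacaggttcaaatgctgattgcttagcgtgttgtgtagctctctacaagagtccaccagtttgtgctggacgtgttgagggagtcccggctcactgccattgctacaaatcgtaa
AT5G33355: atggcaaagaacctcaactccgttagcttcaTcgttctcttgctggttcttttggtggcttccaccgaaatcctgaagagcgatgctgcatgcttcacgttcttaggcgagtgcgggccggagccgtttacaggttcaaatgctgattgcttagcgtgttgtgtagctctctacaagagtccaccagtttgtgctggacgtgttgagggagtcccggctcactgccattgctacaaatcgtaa

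Coding identity within the *PDF1.2* trio was 93.4% to 94.2%, and no 150-base or 75-base stretch of any *PDF* transcript occurred in another annotated transcript. Reads of these lengths therefore separate the *PDF* genes where they match exactly. AT3G59930 and AT5G33355 were 99.6% identical and shared 69 windows of 150 bases, which is 12.2% of those of AT3G59930 and 15.8% of those of AT5G33355. The *PDF1* genes matched the *PDF2* genes at 48.6% to 53.7% of coding positions. No gene of the table overlapped any of the 10 genes on either strand.

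**Figure D1:**
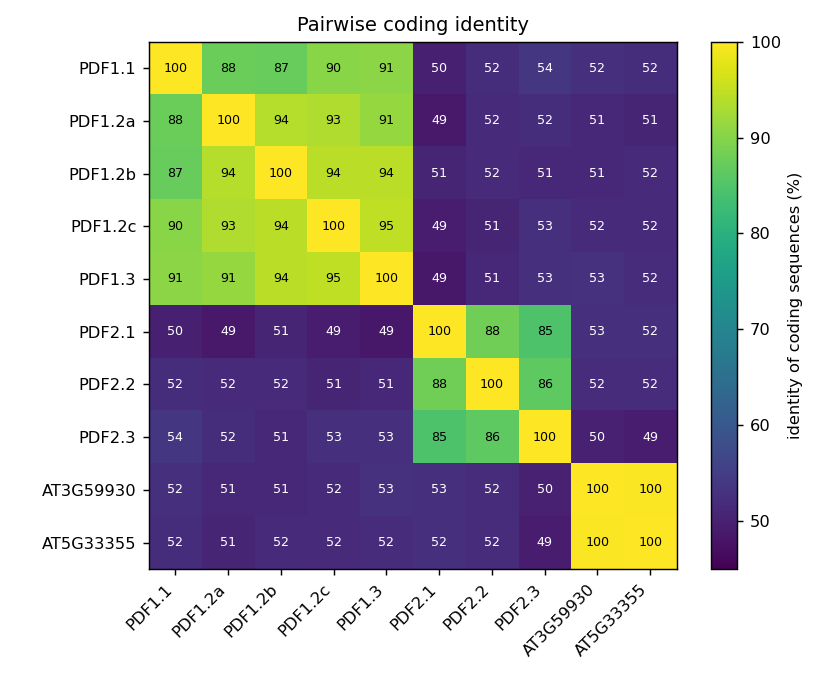
Pairwise identity of the coding sequences of the 10 genes, in percent, with the genes in the same order on both axes and the value written in each cell. The *PDF1* genes, the *PDF2* genes and the pair AT3G59930 and AT5G33355 form separate blocks, with 1 differing base in the last.

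The jasmonate and ethylene marker *PDF1.2a* had 6.02, 1.62 and 7.31 CPM in *ref4-3* plants, against 78.4, 107 and 101 CPM in wild-type plants. Every *ref4-3* library lay below every wild-type library, with replicate 2 the lowest. The log2 fold change of *PDF1.2a*, *ref4-3* over wild type, was -4.25 ± 0.49 (SE, n = 3 per genotype). Scaled by the summed TMM-adjusted totals of each genotype, the summed counts were 18.5-fold lower (95% counting interval 16.9 to 20.3). Such intervals cover counting error only, not the spread between libraries. Ratios of summed counts given below are scaled in the same way.

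*PDF1.2c*, its tandem neighbour on chromosome 5, had 1.51, 0.996 and 2.26 CPM in *ref4-3* and 46.2, 69.0 and 59.8 CPM in wild type. The log2 fold change of *PDF1.2c* was -5.19 ± 0.31. The genotypes were again far apart, and *ref4-3* replicate 2 was again the lowest library.

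*PDF1.2b*, the copy on chromosome 2, was the member with the lowest log2 fold change. It had 0.756, 0.206 and 0.527 CPM in *ref4-3* and 22.2, 26.7 and 32.9 CPM in wild type, a log2 fold change of -5.74 ± 0.37. In *ref4-3* these values rest on 26, 6 and 17 counts, against 700, 768 and 796 counts in wild type. By scaled summed counts *PDF1.2b* was 52.4-fold lower (interval 39.5 to 71.1).

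*PDF1.3* (chr2:11087280-11088001, plus strand) is the tandem neighbour of *PDF1.2b* and codes for a very similar defensin. It had 1.05, 0.378 and 0.867 CPM in *ref4-3* and 10.9, 14.0 and 13.4 CPM in wild type, with a log2 fold change of -4.04 ± 0.32. All *PDF1.3* values in *ref4-3* lay below those in wild type, and replicate 2 of *ref4-3* was once more the lowest.

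The same *ref4-3* library was the lowest of its genotype for some other defence transcripts, though not for all. *PR1*, a salicylate marker, had 36.6 CPM in *ref4-3* replicate 2 and 102 and 112 CPM in the other *ref4-3* libraries. *VSP2*, a storage protein gene, had 342 CPM in replicate 2 and 522 and 259 CPM in the others. Without *ref4-3* replicate 2, the log2 fold changes of *PDF1.2a*, *PDF1.2b* and *PDF1.3* were -3.84, -5.40 and -3.73. Leaving out any single library, the 4 genes ranged between -6.18 and -3.73.

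*PDF1.1* (chr1:28472357-28472898, plus strand), the fifth *PDF1* gene, did not share the difference. It had 0.349, 0.378 and 0.496 CPM in *ref4-3* and 0.636, 0.174 and 0.207 CPM in wild type, so the groups overlapped. The log2 fold change of *PDF1.1* was 0.23 ± 0.56 and its direction depended on 1 library, with -0.12 without wild-type replicate 2 and 1.06 without wild-type replicate 1.

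**Figure D2:**
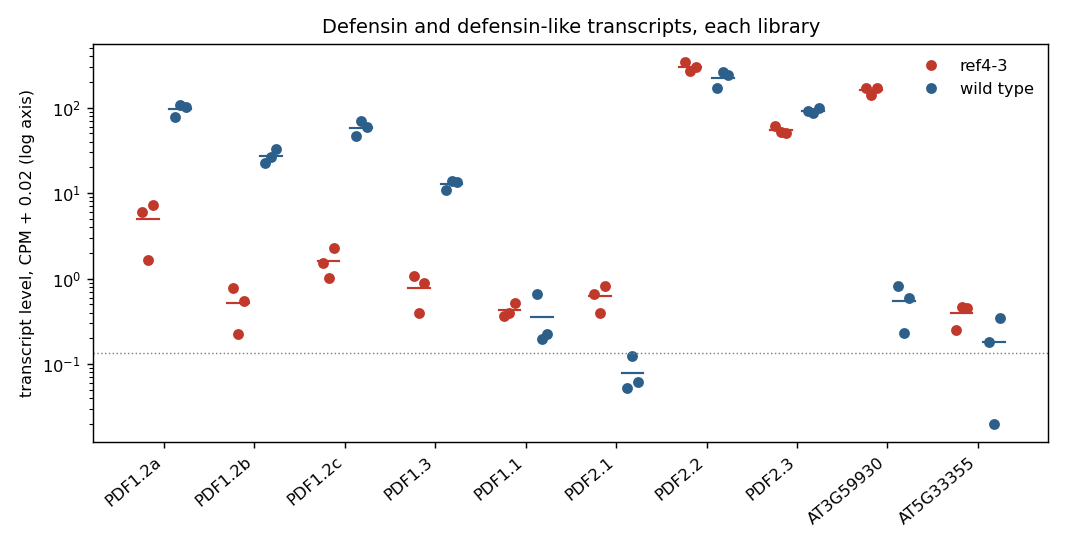
Level of each of the 10 genes in each library, as CPM + 0.02 on a log axis, with *ref4-3* left of wild type; points are libraries, short lines are group means and the dotted line is the largest 3-count floor, 0.115 CPM. *PDF1.2a*, *PDF1.2b*, *PDF1.2c* and *PDF1.3* lie lower in every *ref4-3* library, AT3G59930 and *PDF2.1* lie higher in every one, and *PDF1.1* and AT5G33355 overlap.

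AT3G59930, annotated as a defensin-like gene, had the largest log2 fold change of all 23050 genes tested. It had 169, 140 and 171 CPM in *ref4-3* and 0.794, 0.209 and 0.579 CPM in wild type. The counts were 5806, 4079 and 5521 in *ref4-3*, against 25, 6 and 14 in wild type. Its log2 fold change was 8.23 ± 0.38, and the ratio of scaled summed counts was 302 (interval 225 to 414). It was the member with the steadiest level among *ref4-3* libraries after *PDF2.3*, with a coefficient of variation of 10.8%.

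AT5G33355, whose coding sequence differs from it at 1 base, stayed near the detection floor. It had 0.233, 0.447 and 0.434 CPM in *ref4-3* and 0.159, 0 and 0.331 CPM in wild type, that is 8, 13 and 14 counts against 5, 0 and 8. The groups overlapped, and the gene did not pass the filter on low counts. Its ratio of scaled summed counts was 2.37 (interval 1.23 to 4.89), an interval that leaves out the spread between libraries. How the counting treated reads that match both copies is not stated, and their part in the AT5G33355 counts was not tested. With both genes counted as 1, the log2 fold change was 7.86 ± 0.44.

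*PDF2.1* (chr2:538250-539123, plus strand) was also higher in *ref4-3*, at a low level. It had 0.640, 0.378 and 0.805 CPM in *ref4-3* and 0.032, 0.104 and 0.041 CPM in wild type, with no overlap between the genotypes. The wild-type values rest on 1, 3 and 1 counts, against 22, 11 and 26 counts in *ref4-3*. The ratio of scaled summed counts was 10.4 (interval 4.21 to 33.2). The fitted log2 fold change was 3.28 ± 0.61, and without *ref4-3* replicate 3 the gene was no longer called.

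Rarely detected genes of the whole family also had a higher summed level in *ref4-3*, which was not tested. The 251 family genes outside the set that did not pass the filter summed to 20.9, 19.7 and 25.1 CPM in *ref4-3* and 12.9, 3.24 and 11.2 CPM in wild type, with wild-type replicate 2 far the lowest. The part of this in the values of *PDF1.1*, *PDF2.1* and AT5G33355, all under 1 CPM, was not tested.

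The other *PDF2* genes, *PDF2.2* and *PDF2.3*, were abundant in both genotypes and differed by less than 2-fold. *PDF2.2* (chr2:528179-529186, plus strand) had 342, 272 and 296 CPM in *ref4-3* and 170, 259 and 242 CPM in wild type, a log2 fold change of 0.44 ± 0.19. The highest wild-type library came close to the lowest *ref4-3* library without overlap. The value was 0.25 without wild-type replicate 1 and 0.70 when libraries were scaled by their totals, a scaling that moved the median of all genes by 0.25.

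*PDF2.3* (chr2:539898-540707, plus strand) had 61.1, 51.8 and 50.5 CPM in *ref4-3* and 90.7, 86.0 and 99.5 CPM in wild type. All *ref4-3* libraries lay below wild type, but the log2 fold change of *PDF2.3*, -0.76 ± 0.13, was under the 2-fold threshold. The count of *PDF2.2* per count of *PDF2.3* was 5.60, 5.26 and 5.87 in *ref4-3* and 1.87, 3.01 and 2.44 in wild type, a ratio within each library that does not depend on scaling. The *PDF2* members on chromosome 2 thus had unlike log2 fold changes, 3.28 for *PDF2.1* at its low level, 0.44 for *PDF2.2* and -0.76 for *PDF2.3*.

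Of the 9 genes that passed the filter, 2 were called higher in *ref4-3* (AT3G59930 and *PDF2.1*) and 4 lower (the *PDF1.2* trio and *PDF1.3*), at an adjusted p-value under 0.05 by edgeR's quasi-likelihood test and a fold change above 2. Over all genes tested, 4.48% were called higher and 5.24% lower. The groups did not overlap in 3 members with *ref4-3* above and 5 with *ref4-3* below, against 22.5% and 22.7% of all genes tested. These member counts follow from how the genes were picked. The member just under the fold threshold was *PDF2.3* at -0.76, and the called members nearest to it were *PDF2.1* at 3.28 and *PDF1.3* at -4.04.

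Summed over the 10 genes, transcript levels were similar, 527 ± 57.2 CPM in *ref4-3* and 510.5 ± 78.9 CPM in wild type (SD, n = 3 each). The other family genes, outside this sum, added 255.6 ± 62.4 CPM in *ref4-3* and 220.4 ± 35.5 CPM in wild type. The make-up of the 10-gene sum differed, which follows from picking genes that differ in opposite directions. *PDF1.2a*, *PDF1.2b*, *PDF1.2c* and *PDF1.3* together made up 1.45% of the 10-gene sum in *ref4-3* (0.682% to 2.07%) and 37.9% in wild type (37.6% to 38.6%). AT3G59930 made up 30.4% in *ref4-3* and 0.111% in wild type. *PDF2.2* was the largest component in both genotypes, at 57.6% in *ref4-3* and 43.5% in wild type.

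Among the *PDF1.2* copies, *PDF1.2a* contributed 72.6%, 57.3% and 72.4% of the counts of the trio in *ref4-3* and 53.4%, 52.8% and 52.1% in wild type. The wild-type shares lay close together, while those in *ref4-3* were further apart and rest on 285, 82 and 326 counts in all. Counted as 1 gene, the trio had a log2 fold change of -4.67 ± 0.45. The coefficient of variation between libraries of *PDF1.2a* was 59.95% in *ref4-3* and 15.8% in wild type.

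**Figure D3:**
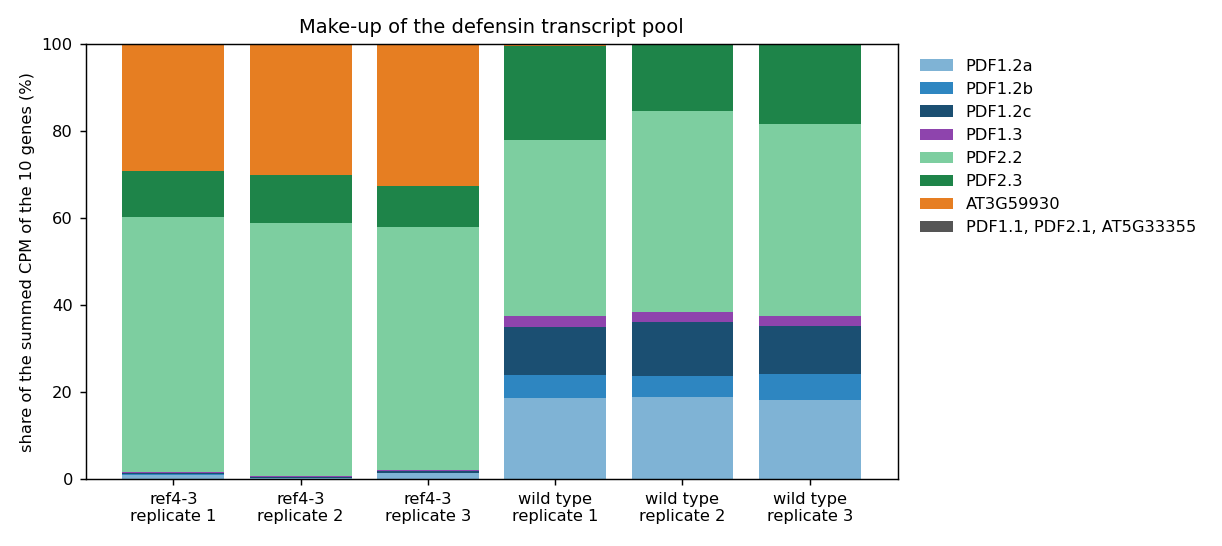
Share of each gene in the summed CPM of the 10 genes, in percent, for the 3 *ref4-3* libraries on the left and the 3 wild-type libraries on the right. AT3G59930 fills 29.0% to 32.2% of the *ref4-3* bars, and the 4 genes *PDF1.2a*, *PDF1.2b*, *PDF1.2c* and *PDF1.3* fill 37.6% to 38.6% of the wild-type bars.

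Per kilobase of transcript, the order of the genes in *ref4-3* was led by *PDF2.2* at 403 CPM per kb, AT3G59930 at 224 and *PDF2.3* at 77.0, with no overlap between these levels. *PDF1.2a* followed at 8.61 CPM per kb and overlapped *PDF1.2c* at 2.90. *PDF1.3*, *PDF2.1*, *PDF1.1*, *PDF1.2b* and AT5G33355, at 1.23 to 0.634 CPM per kb, overlapped in turn.

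In wild type *PDF2.2* also led, at 297 CPM per kb. *PDF1.2a* at 165, *PDF2.3* at 130 and *PDF1.2c* at 106.5 CPM per kb overlapped in turn, and *PDF1.2b* at 44.8 and *PDF1.3* at 20.6 CPM per kb were distinct from their neighbours. *PDF1.1*, AT3G59930, AT5G33355 and *PDF2.1*, at 0.779 to 0.101 CPM per kb, overlapped in turn. AT3G59930 thus held the second level per kb in *ref4-3* and the eighth in wild type.

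The promoters were searched from 250 bases before to 50 bases after the annotated start, on both strands, for the GCC box (GCCGCC), the target of ERF activators. It occurred in 3 of the 10 promoters, against 2.57% of 27443 protein-coding promoters. The 3 matches are shown on the strand of the gene with the box in capitals, which for AT3G59930 is its reverse complement. They begin 222, 143 and 19 bases before the start, at chr5:17907845-17907870 (minus strand), chr2:11088970-11088995 (plus strand) and chr3:22140324-22140349 (minus strand) of TAIR10.1.
PDF1.2a: agattaaccaGCCGCCcatgtgaacg
PDF1.2b: agattaaccaGCCGCCcatgcaaagc
AT3G59930: tataaaaactGGCGGCaatacacaat

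*PDF1.2a* and *PDF1.2b* carry the same bases before the box. AT3G59930, with the opposite fold change, has the box too, and *PDF1.2c* and *PDF1.3* do not have these letters, also when 1000 bases were searched. The G box (CACGTG), the element bound by MYC factors, was in 0 of 10 promoters, against 7.68% of all. The W box core (TTGAC) was in 7 of 10, against 50.5%, and the TGA element (TGACG), which can overlap it, was in 1 of 10 against 23.1%. The TATA motif (TATAAA) was in 8 of 10, against 52.1%, and the evening element (AAAATATCT) was in 1 of 10 (*PDF2.1*), against 2.82%. In *PDF1.2a* and *PDF1.3* the TATA match of this window lies after the annotated start, by 6 and 39 bases.

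Of the 270 other family genes, 19 were tested, with a median log2 fold change of 0.26 against 0.01 over all genes tested. Some passed the filter on low counts mainly through the genotype in which they were higher. AT1G31772 had 15, 12 and 21 counts in *ref4-3* and 9, 3 and 3 in wild type. AT5G44973 had 11, 5 and 11 counts in *ref4-3* and 19, 17 and 34 in wild type. The part of the filter in the median was not tested. Of the 19 genes, 1 rose and 1 fell, against 4.48% and 5.24% of all genes tested. The defensin-like gene AT3G05730 fell to 7.48, 5.60 and 8.40 CPM in *ref4-3*, against 23.6, 17.99 and 24.1 CPM in wild type, a log2 fold change of -1.61 ± 0.19 (adjusted p = 0.0041, edgeR). AT4G22230 had 0.582, 0.515 and 0.682 CPM in *ref4-3* and 0.222, 0.209 and 0.248 CPM in wild type, a log2 fold change of 1.38 ± 0.37 (adjusted p = 0.040, edgeR). It passed the filter through its *ref4-3* libraries, with 20, 15 and 22 counts against 7, 6 and 6 in wild type. Its call did not hold when any one of the 6 libraries was left out. None of the 19 had a fold change as large as those of the 6 called members, which follows from how the members were picked.

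**Figure D4:**
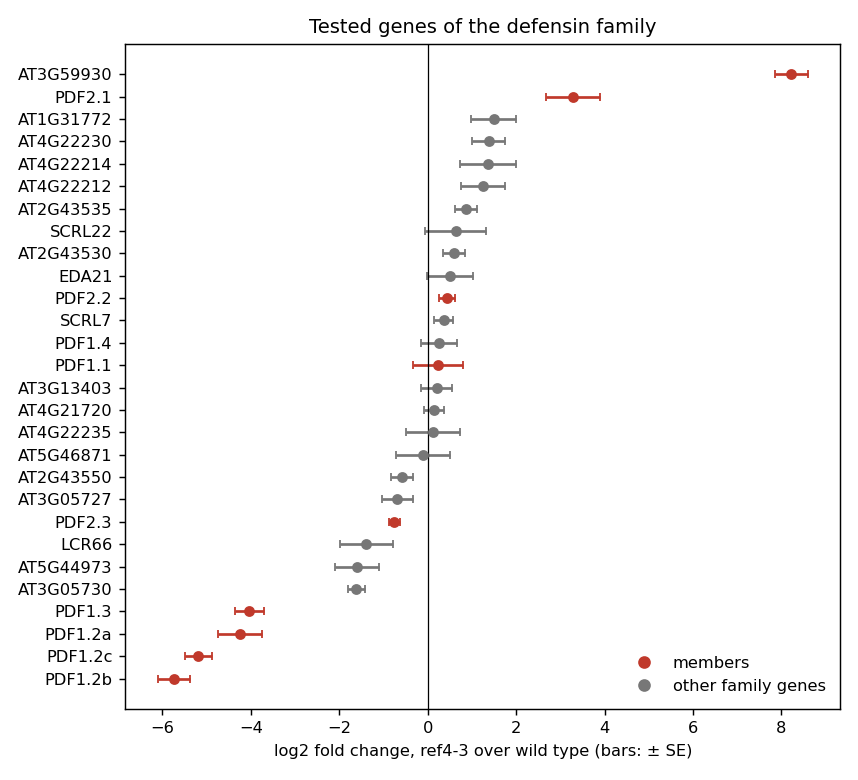
Log2 fold change, *ref4-3* over wild type, of the 28 tested family genes, with the SE as bars; red points are the 9 tested members and grey points the 19 other family genes. The grey points lie between -1.61 and 1.49, and AT3G59930, *PDF2.1* and the 4 low *PDF1* genes lie outside that range. The members were picked for differing between the genotypes, and the grey genes were not.

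Thionins are another family of small cysteine-rich defence peptides. Of 57 thionin genes in the table, 7 were tested, of which 1 rose and 2 fell, against 4.48% and 5.24% of all genes tested. The thionin gene AT1G66100 fell to 27.9, 11.4 and 12.4 CPM in *ref4-3*, against 119, 96.1 and 108 CPM in wild type (log2 fold change -2.64 ± 0.35, adjusted p = 0.0050, edgeR). *THI2.2* fell by 1.37 on the log2 scale (adjusted p = 0.017, edgeR), a call lost without *ref4-3* replicate 3, which left 1 lower thionin. AT5G63087 rose by 2.105 on the log2 scale (adjusted p = 0.015, edgeR), at 1.02 to 1.95 CPM in *ref4-3* and 0.222 to 0.413 CPM in wild type. This gene, too, passed the filter on low counts through its *ref4-3* libraries.

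Among 14 listed activators of defensin transcription, 13 were tested, of which 0 rose and 6 fell, against 4.48% and 5.24% of all genes tested. The 6 lower genes were *ERF1B*, *ERF2*, *ERF1A*, *ERF6* and *ERF104*, ERF factors, and *WRKY33*, a factor needed for resistance to necrotrophic fungi. *ERF6* had 7.19, 3.92 and 5.30 CPM in *ref4-3* and 48.6, 199 and 82.0 CPM in wild type, a log2 fold change of -4.32 ± 0.55 (adjusted p = 0.0047, edgeR). *WRKY33* had a log2 fold change of -3.65 ± 0.51 (adjusted p = 0.0060, edgeR), and *ERF1B* one of -2.82 ± 0.61 (adjusted p = 0.020, edgeR).

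Wild-type replicate 2 was the highest library for each of these 6 genes, with 829 CPM for *WRKY33* against 259 and 248 CPM in the other wild-type libraries. For *PDF1.2a* and *PDF1.2c* it was the highest as well, but by far less, at 107 against 101 CPM and 69.0 against 59.8 CPM for the next library. *PDF1.3* had 14.0 CPM in it, against 13.4 CPM in the next. For *PDF1.2b*, wild-type replicate 3 was the highest instead, at 32.9 CPM against 26.7 CPM in replicate 2, and so it was for *ORA59*, at 30.7 against 9.88 CPM. Without wild-type replicate 2, the log2 fold changes of *ERF6* and *WRKY33* were -3.59 and -2.86. The count of lower activators was 2 without *ref4-3* replicate 2 and 2 without *ref4-3* replicate 3.

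*ORA59*, the ERF factor through which jasmonate and ethylene act on *PDF1.2a*, had 4.10, 5.26 and 9.39 CPM in *ref4-3* and 11.4, 9.88 and 30.7 CPM in wild type. The groups did not overlap, and its log2 fold change of -1.47 ± 0.49 did not pass (adjusted p = 0.070, edgeR). It was called under 5 of 13 alternatives. *MED25*, the Mediator subunit that ERF and MYC factors contact, had a log2 fold change of 0.01.

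Among 13 listed repressors and antagonists, 0 rose and 7 fell, against 4.48% and 5.24% of all genes tested. *MYC2* had 64.9, 29.1 and 41.9 CPM in *ref4-3* and 107, 472 and 147.5 CPM in wild type, a log2 fold change of -2.42 ± 0.58 (adjusted p = 0.028, edgeR) and of -1.51 without wild-type replicate 2. The others were *ERF4*, *ERF9*, *WRKY70*, *GRX480*, *NPR1* and *JAZ1*, with log2 fold changes between -3.38 and -1.12. The count was 3 without *ref4-3* replicate 2, 1 without *ref4-3* replicate 3 and 4 without wild-type replicate 2. Each called gene of the activator and antagonist lists was lower in *ref4-3*.

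**Figure D5:**
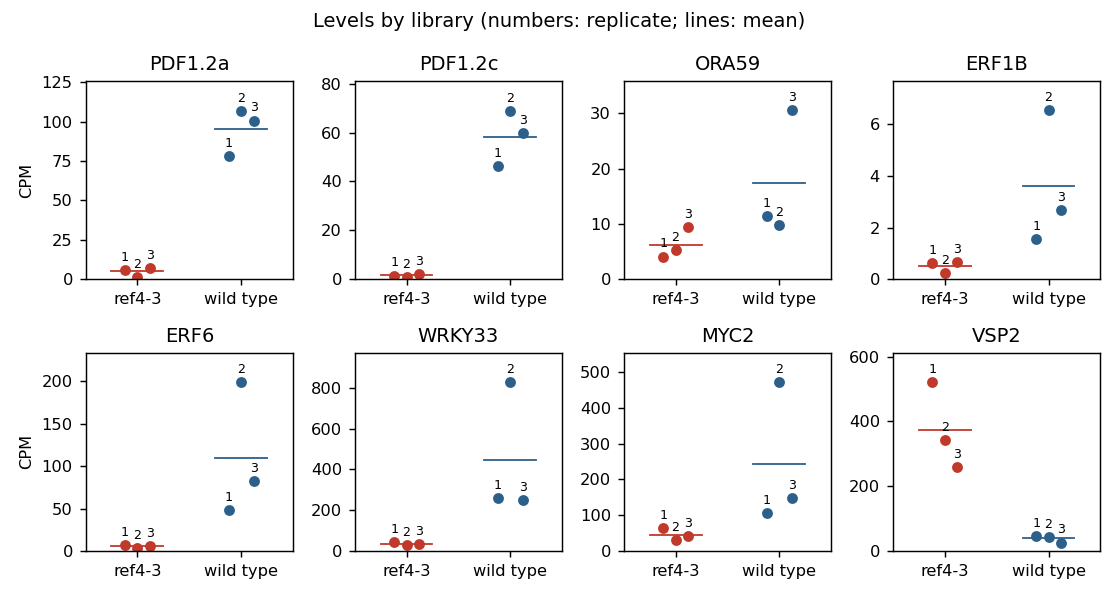
CPM of *PDF1.2a*, *PDF1.2c*, 4 activators, the antagonist *MYC2* and *VSP2* in each library, with *ref4-3* left of wild type, numbers giving the replicate and lines the group mean. Wild-type replicate 2 stands far above the other wild-type libraries for *ERF6*, *WRKY33* and *MYC2* and close to them for *PDF1.2a*.

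Several other defence outputs differed in the direction opposite to *PDF1.2a*. Of 11 listed defence output genes, 5 rose and 0 fell, against 4.48% and 5.24% of all genes tested. An unadjusted p-value under 0.05 by edgeR was found for 8 of them, against 8823 of all 23050 genes tested. DESeq2 called 1 output lower. *VSP2*, a vegetative storage protein gene of the MYC2 branch, had 522, 342 and 259 CPM in *ref4-3* and 47.4, 44.4 and 25.9 CPM in wild type (log2 fold change 3.25 ± 0.33, adjusted p = 0.0023, edgeR). Other jasmonate outputs of the list were not called, with log2 fold changes of 0.07 for *VSP1*, -0.50 for the lipoxygenase gene *LOX2* and -1.18 for the tyrosine aminotransferase gene *TAT3*, each with overlapping groups (adjusted p = 0.89, 0.12 and 0.14, edgeR). The thionin gene *THI2.1* had the lowest log2 fold change of the list, -1.53 ± 0.46, and was not called (adjusted p = 0.053, edgeR). Its groups overlapped too, and 7 of the 11 listed genes had a log2 fold change above 0. *PR3*, a basic chitinase gene that jasmonate and ethylene induce with *PDF1.2a*, rose by 1.60 ± 0.38 (adjusted p = 0.026, edgeR), and the osmotin gene *OSM34* rose by 3.04 ± 0.54 (adjusted p = 0.011, edgeR). The call of *PR3* was lost under 5 of 13 alternatives and that of *OSM34* under 1.

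The salicylate markers *PR1* and *PR5* rose by 1.59 ± 0.39 and 2.27 ± 0.45 (adjusted p = 0.030 and 0.016, edgeR). The call of *PR1* was lost under 5 of 13 alternatives and that of *PR5* under 1. *PR4*, a hevein-like gene that also belongs to the jasmonate and ethylene outputs, had 128, 36.7 and 127 CPM in *ref4-3* and 159 to 208 CPM in wild type, a log2 fold change of -0.94 ± 0.42 (adjusted p = 0.14, edgeR). The count of higher output genes was 1 without *ref4-3* replicate 3 and 3 without either *ref4-3* replicate 1 or wild-type replicate 3.

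The tested genes next to the 10 members were not called. Of 14 neighbours, 6 were tested with edgeR, with log2 fold changes of 0.00 to 2.09, and 0 were called in either direction. An unadjusted p-value under 0.05 by edgeR was found for 1, against 8823 of all 23050 genes tested, and the exact test called 1 higher. The neighbour with the largest value was *CDR1*, an aspartic protease gene beside AT5G33355 with 0.378 to 0.465 CPM in *ref4-3* and 0 to 0.289 CPM in wild type. AT5G44440, 972 bases from *PDF1.2c*, and AT2G26030, 1524 bases from *PDF1.2b*, were among the neighbours that were not called.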

How the data were processed

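Poly(A) RNA of 3 *ref4-3* and 3 wild-type replicates was sequenced with a directional kit. The authors trimmed reads with fastp 0.23.2, mapped them to TAIR10 with HISAT2 2.2.1, sorted them with SAMtools 1.17 and deposited raw counts per Araport11 gene. The strand setting and the treatment of multi-mapping reads are not given in the sources used here. Genes were tested with edgeR 4.0.16 (R 4.3.3). filterByExpr (minimum count 10, total 15) retained 23050 genes, TMM factors were used, and the two-sided quasi-likelihood test was adjusted by Benjamini-Hochberg over all of them. Called genes had an adjusted p-value below 0.05 and more than a 2-fold change. CPM use TMM-scaled totals, and 3 counts correspond to 0.0912 to 0.115 CPM. Ratios of summed counts were divided by the ratio of the summed TMM-scaled totals, and their counting intervals (95%, exact) cover counting error only. Identifiers were paired with the RefSeq annotation of TAIR10.1 (36632 of 36796), which gives all coordinates and sequences. Of 62 listed loci, 1 was dropped because its symbol did not match.

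The members and lists were chosen with earlier results of these data known. Named genes are the members, the called genes of the lists and a few anchors (*MYC2*, *ORA59*, *ERF1B*, *PR4*, *VSP2*, *PR1*). Alternatives were edgeR's exact test, DESeq2 1.42.0, RLE factors, library totals, other filters, no fold threshold, a replicate block, leaving out each library, summed copies, 75-base windows and, chosen after seeing the data, a longer promoter window. The fit was tested on simulated data.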

Additional observations from a re-analysis of the deposited data

How the results depend on the processing

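The members were picked on this contrast, so how their calls held is a description only. The 4 members called lower kept their calls in all alternatives run except that *PDF1.2b* was not tested with at least 10 counts in every library, and AT3G59930 kept its call wherever it was tested. With that filter 0 members were called higher, since AT3G59930 and *PDF2.1* were left out, and 0 other family genes and 0 thionins. The exact test called 1692 genes higher, with 2 other family genes higher and 2 lower, 2 thionins higher, 1 neighbour higher and 1 defence output lower. DESeq2 called 1 defence output and 2 other family genes lower. Library totals called 1875 genes higher and 888 lower, against 1033 and 1207 with TMM, and 2 other family genes higher. Without a filter, 1 defence output and 4 thionins were lower. With no fold threshold, 1964 genes were higher and 2737 lower, with 2 other family genes higher.

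Leaving out 1 library gave 345 to 945 genes higher and 456 to 1471 lower, fewest without *ref4-3* replicate 3. Members gave 1 to 2 higher and 4 to 4 lower, activators 2 to 7 lower, repressors 1 to 7 lower, defence outputs 1 to 6 higher and 0 to 1 lower. Other family genes gave 0 to 1 higher, thionins 1 to 3 lower and neighbours 0 to 1 higher. The cause was not tested.

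A replicate block gave 3 defence outputs higher, 0 other family genes higher and 4 repressors lower, and no member call changed with it. Samples of the same number deviated with correlations of 0.00, -0.12 and 0.16 and did not all match their own number best, so the numbers were not taken as pairs. With 75-base windows, AT3G59930 and AT5G33355 shared 22.4% and 28.2% of their windows. In 1000 bases, chosen after seeing the data, the TGA element was in 8 of 10 promoters, against 54.1% of all. Depth limits the values whose group mean was under 1 CPM: *PDF1.1*, *PDF2.1* and AT5G33355 in both genotypes, *PDF1.2b* and *PDF1.3* in *ref4-3*, and AT3G59930 in wild type, the base of its ratio.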
